A study of Homo sapiens with 4 samples.

Results

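Classical genes of the epithelial-mesenchymal transition (EMT) were examined in SAS cells, a human tongue squamous carcinoma line, with and without C6orf141 overexpression. They are the cadherin genes CDH1, CDH2 and CDH3, the vimentin gene VIM, the fibronectin gene FN1 and the transcription factor genes SNAI1, SNAI2, TWIST1, ZEB1 and ZEB2. The genes were picked by symbol, and all 10 of 10 were found among the 33458 genes of the array table that have exactly 1 symbol. RNA from 2 control samples, which the sample labels call scrambled controls, and 2 C6orf141 overexpression samples was hybridised to 4 Clariom D arrays, which give 1 log2 signal per transcript cluster. Where a gene had several transcript clusters, the one with the highest mean over the arrays was used. The treatment protocol in the labels, which is the same for all 4 samples, describes stable cells with full-length C6orf141 in the pLVX-IRES-Neo vector, kept under G418 selection. The title of the series speaks of transfection with a C6orf141 mimic, and the array methods do not say which cells gave the RNA. Vector-transfected SAS cells served as controls in other assays of the study, but the labels and methods do not say whether the control cells of the arrays carried the vector or were selected, whether the stable cells were a pool or 1 clone, or whether the 2 samples of a group were separate cultures. The p-values below therefore measure only the spread between these samples, which may be technical. Migration and invasion of SAS cells after transfection with C6orf141 or a control were among the traits the study examined. Whether those were the cells of the arrays is not stated. The comparison here asks whether the RNA of the EMT genes differed between the groups.

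EMT is the process by which epithelial cells loosen their junctions and take on features of migrating mesenchymal cells. E-cadherin, the product of CDH1, ties epithelial cells to each other, and the SNAIL, ZEB and TWIST proteins repress its gene by binding E-box sequences in DNA. Cells that undergo EMT typically lose CDH1 and gain CDH2, VIM and FN1. In squamous carcinomas, cells that hold epithelial and mesenchymal features at the same time are well known.

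C6orf141 itself had signals (log2) of 8.57 and 7.92 on control arrays 1 and 2 and of 11.36 and 12.04 on overexpression arrays 1 and 2, in the direction of the labels. Its log2 fold change was 3.46 (standard error 0.32), with an adjusted p of 0.214 in limma, which became 0.0413 with the replicate number as a block and 0.0400 with trend and robust settings. Under the other alternatives it lay between 0.102 (without overexpression array 1) and 1.00 (without control array 2), the unadjusted p staying below 0.05. Array medians lay between 4.71 and 4.77. The table holds no detection calls, so a background level of 5.81 was taken from 400 olfactory receptor genes, a family that epithelial cells seldom transcribe, as the 95th percentile of their mean signals. The 95th percentile of the arrays' own negative control rows reached 7.72. A gene is called above the background level when its mean exceeds 5.81, which does not place it above 7.72. The control arrays differed more from each other than the overexpression arrays did, since 433 of the 16146 genes above the background level (2.68%) were more than 2-fold apart on the control pair, compared with 43 (0.266%) on the overexpression pair. Of the markers of oral squamous epithelium, all 7 measured genes were above the background level, among them KRT5, KRT16, SFN and ITGB4. None of 8 endothelial markers was above it, nor were DCN, LUM and PDGFRB among 9 fibroblast markers or PTPRC among 7 leukocyte markers. The exceptions were COL1A1, COL1A2 and FAP for fibroblasts, CD3E, CD68 and TYROBP for leukocytes, and ACTA1 and CNN1 among 7 muscle markers. The samples are bulk RNA of 1 cell line and not of tissue, so these signals were not read as shares of cell types. The source of the exceptions was not tested.

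In both groups, SAS cells had RNA of epithelial and mesenchymal genes together. CDH1, CDH3, CDH2, VIM, FN1 and SNAI2 were above the background level on every array, and their lowest signal was 10.26. ZEB1, ZEB2, SNAI1 and TWIST1 had mean signals below the background level. The difference between the groups passed the test in none of the 10 genes. In limma 0 of 10 passed an adjusted p below 0.05, where 0% of all 33458 genes did, and 0 of 10 passed an unadjusted p below 0.05, where 2.11% of all genes did, and 0.898% when only genes above the background level were counted. The test that the methods name, run as an alternative, also gave 0 of 10 at the unadjusted threshold. The adjusted p from limma was 1.00 for each of the 10 genes.

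**Figure D1:**
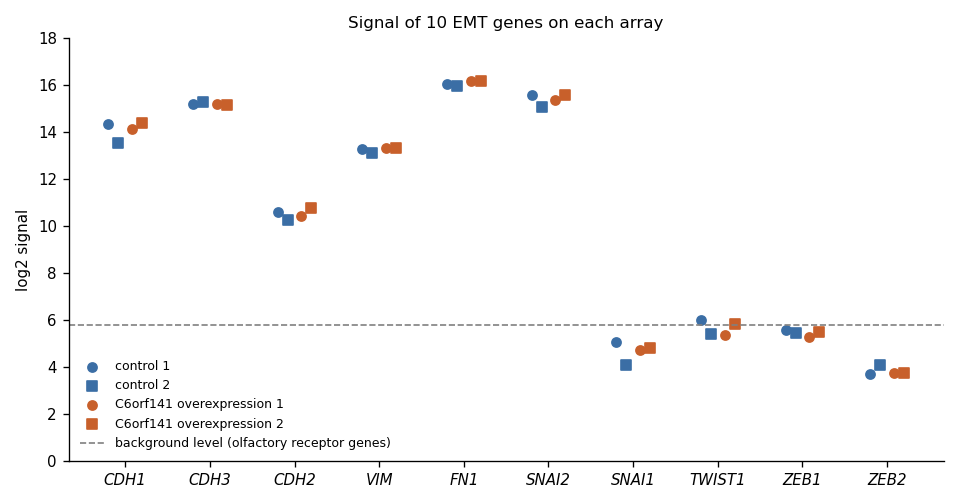
Log2 signal (vertical axis) of each of the 10 genes on the 4 arrays; blue stands for control and orange for C6orf141 overexpression, circles for array 1 and squares for array 2, and the dashed line is the background level of 5.81. CDH1, CDH3, CDH2, VIM, FN1 and SNAI2 sit far above the line on all arrays, whereas SNAI1, TWIST1, ZEB1 and ZEB2 lie near or below it.

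CDH1 had the largest difference of the 10 genes. The signals (log2) were 14.34 and 13.53 on control arrays 1 and 2 and 14.15 and 14.38 on overexpression arrays 1 and 2. Control array 2 was the low one, and the other control array lay between the overexpression arrays, so the groups overlapped. The means were 13.93 ± 0.58 (SD, n = 2) and 14.26 ± 0.17 (SD, n = 2), a log2 fold change of 0.33 (standard error 0.31, 95% interval −0.38 to 1.04), or 1.26-fold (0.768 to 2.06). Of all genes above the background level, 11.3% had a larger difference in either direction. The value rested on control array 2: without it the log2 fold change was −0.08, and without control array 1 it was 0.74, which passed an unadjusted p below 0.05 in limma (unadjusted p = 0.0334).

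CDH3 encodes P-cadherin, the cadherin of basal epithelial cells, and lies beside CDH1 on chromosome 16. The signals (log2) were 15.18 and 15.27 in control cells and 15.20 and 15.14 under overexpression. The 4 arrays were close and the groups overlapped. The log2 fold change was −0.06 (standard error 0.22, 95% interval −0.57 to 0.46). A second, dimmer transcript cluster named CDH3 had 12.29 and 12.27 in control cells and 12.42 and 12.33 under overexpression. Its log2 fold change of 0.09 (standard error 0.22) had the opposite sign. For neither cluster was the difference larger than its limma standard error, which draws on the variance of all rows.

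CDH2 encodes N-cadherin, which is typical of neurons and mesenchymal cells and is gained in a cadherin switch. The signals (log2) were 10.60 and 10.26 in control cells and 10.44 and 10.76 under overexpression. The arrays of the groups alternated, with control array 2 lowest and overexpression array 2 highest. The log2 fold change was 0.17 (standard error 0.25, 95% interval −0.41 to 0.74). For CDH1 and CDH2 alike the estimate was thus above 0, and both 95% intervals included 0.

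VIM encodes the intermediate filament protein of mesenchymal cells. The signals (log2) were 13.29 and 13.13 in control cells and 13.33 and 13.32 under overexpression, which differed from each other by under 0.01. Both overexpression arrays lay above both control arrays, by a small margin. The log2 fold change was 0.11 (standard error 0.22, 95% interval −0.41 to 0.63). A second, dimmer transcript cluster named VIM, for which the sources used here give no strand, had 5.63 and 4.94 in control cells and 5.83 and 5.79 under overexpression, a log2 difference of 0.53 (standard error 0.28) around the background level. The mean of both clusters, in which the dim cluster counts as much as the bright one, had a log2 fold change of 0.32.

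FN1 encodes fibronectin, a matrix glycoprotein on which cells spread and migrate. The signals (log2) were 16.06 and 15.97 in control cells and 16.20 and 16.16 under overexpression. The overexpression arrays were both higher, as for VIM. The log2 fold change was 0.16 (standard error 0.22, 95% interval −0.35 to 0.68), or 1.12-fold. VIM and FN1 were the 2 of 10 genes whose groups did not overlap, where this was so for 29.4% of all genes and for 27.6% of those above the background level.

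SNAI2 encodes SLUG, a repressor of CDH1 that basal epithelial cells also use, and it was the EMT transcription factor of the set with a signal above the background level. The signals (log2) were 15.58 and 15.08 in control cells and 15.38 and 15.57 under overexpression. Control array 2 was again lowest and control array 1 highest, so the overexpression arrays lay between the control arrays. The log2 fold change was 0.15 (standard error 0.26, 95% interval −0.45 to 0.74). SNAI2 and CDH1, a repressor and its known target, were thus both above the background level on the same arrays.

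SNAI1, TWIST1, ZEB1 and ZEB2 encode the other repressors of CDH1, and their values get no direction of expression, since their means lay within the range of silent genes. SNAI1 had signals (log2) of 5.09 and 4.09 in control cells and 4.73 and 4.82 under overexpression. The control arrays had the widest replicate gap of the 10 genes and enclosed both overexpression arrays. The log2 difference between the groups was 0.18 (standard error 0.34), −0.32 without control array 2 and 0.69 without control array 1, which passed an unadjusted p below 0.05 in limma (unadjusted p = 0.0380). TWIST1, a basic helix-loop-helix factor, had 6.02 and 5.42 in control cells and 5.36 and 5.83 under overexpression. Thus 1 array of each group reached the background level, and the log2 difference was −0.12 (standard error 0.29).

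The zinc finger homeobox genes ZEB1 and ZEB2 had the steadier low signals. ZEB1 had signals (log2) of 5.56 and 5.46 in control cells and 5.29 and 5.50 under overexpression, a difference of −0.11 (standard error 0.23). ZEB2 had 3.73 and 4.10 in control cells and 3.75 and 3.74 under overexpression, a difference of −0.17 (standard error 0.24). The groups overlapped in both genes. Of the 400 olfactory receptor genes, 129 had a lower mean signal than ZEB2, 292 a lower one than SNAI1, 365 a lower one than ZEB1 and 376 a lower one than TWIST1.

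**Figure D2:**
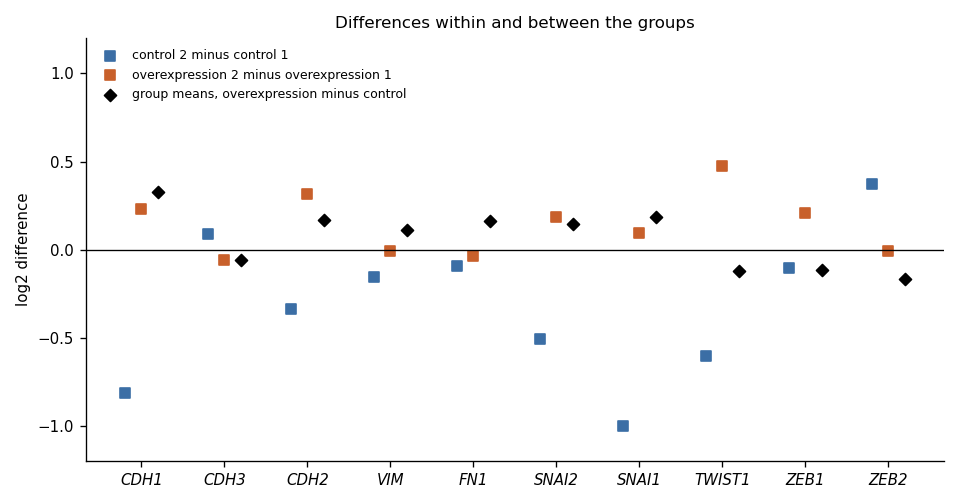
Log2 differences (vertical axis) for each of the 10 genes: control array 2 minus control array 1 (blue squares), overexpression array 2 minus array 1 (orange squares) and the difference of the group means, overexpression minus control (black diamonds). The blue squares of CDH1, SNAI1, SNAI2 and TWIST1 reach −0.51 or lower, farther from 0 than the black diamond of any gene.

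The gap between arrays of 1 group exceeded the difference between the groups in 9 of the 10 genes, FN1 being the exception, and in 81.5% of all genes. Much of this gap lay between the control arrays. Control array 2 was below control array 1 in 8 of the 10 genes, where 51.9% of all genes were lower there, and it was the lowest of the 4 arrays in 5 of the 6 genes above the background level, where this was so for 36.5% of genes above that level. The exception was CDH3. In the same direction, control array 2 was lowest for 10 of 16 epithelial adhesion and keratin markers and for 6 of 7 squamous markers. Among genes above the background level it was lowest for 7 of 11 catenin and nectin genes and 8 of 12 epithelial factors. The same held for 8 of 13 corepressors, 7 of 13 other EMT factors, 4 of 8 fibronectin partners and 3 of 3 other cadherins. It was lowest for 1 of 7 genes of SNAIL and TWIST protein stability, for 1 of 5 non-coding genes and for 0 of 3 fibroblast markers above that level. Among the other markers above it, control array 2 was lowest for 1 of 3 leukocyte and 1 of 2 muscle markers. The part of this array in the differences of the single genes was measured by leaving it out, with the values given for CDH1 and SNAI1, and the sign of the estimate then turned for CDH1, CDH2, SNAI1, SNAI2 and ZEB2. For TWIST1 it turned without control array 1 (0.18) and without overexpression array 1 (0.12).

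**Figure D3:**
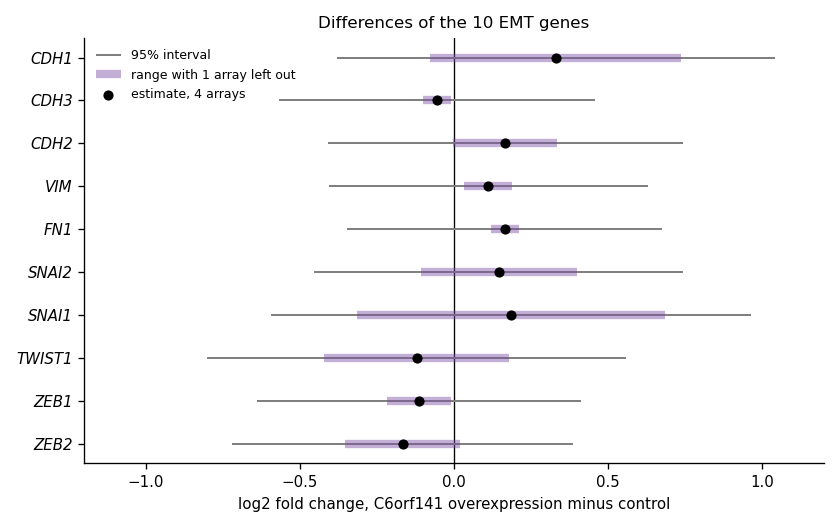
Log2 fold change of each of the 10 genes, C6orf141 overexpression minus control (horizontal axis), as the estimate over 4 arrays (black points), its 95% interval from limma (grey lines) and the range of estimates with 1 array left out (purple bars). Every 95% interval includes 0, and the purple bars of CDH1 (−0.08 to 0.74) and SNAI1 (−0.32 to 0.69) are the widest.

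Over the 10 genes the estimates lay between −0.17 and 0.33 (log2), with 6 estimates above 0 and 4 below, and a median of 0.13, where the median over all genes was −0.00036. The median of the 10 genes was −0.04 without control array 2, 0.20 without control array 1, 0.13 without overexpression array 1 and 0.03 without overexpression array 2. The median size of the difference, whatever its sign, was 0.155 for the 10 genes and 0.148 for all genes. All 6 genes above the background level except CDH3 had an estimate above 0, epithelial CDH1 and mesenchymal CDH2, VIM and FN1 included. Standard errors lay between 0.22 and 0.34, so the 95% intervals reached 0.51 to 0.78 on either side of the estimate. For the 6 genes above the background level the intervals together spanned 0.674- to 2.06-fold. No gene on the array passed the unadjusted threshold with a log2 difference under 0.51.

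**Figure D4:**
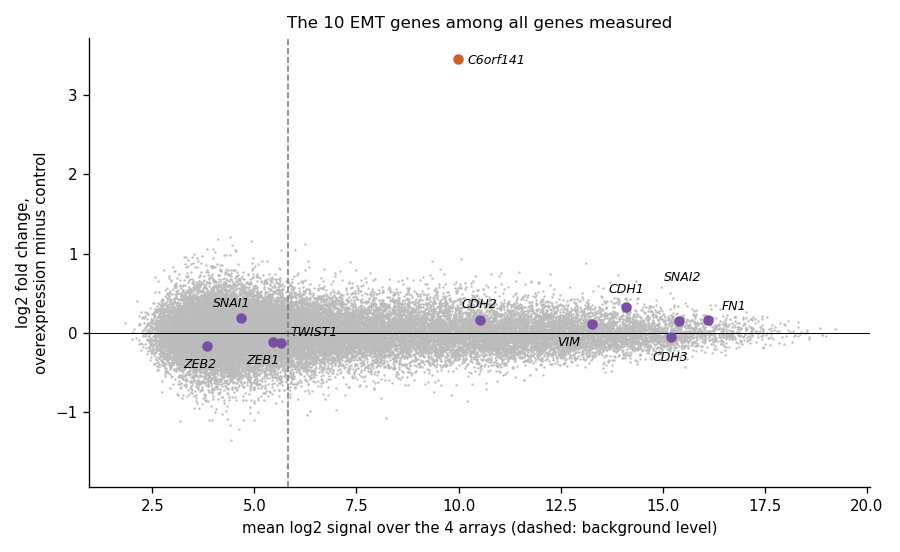
Log2 fold change, overexpression minus control (vertical axis), against the mean log2 signal over the 4 arrays (horizontal axis) for all 33458 genes (grey), with the 10 EMT genes in purple, C6orf141 in orange and the background level dashed. The EMT genes lie within the grey cloud, between −0.17 and 0.33, whereas C6orf141 lies at 3.46.

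The miR-200 family represses ZEB1 and ZEB2, which in turn repress the miR-200 genes. The family is shown for this link, and its part in the low ZEB signals was not tested. RefSeq sequences (GRCh38.p14) are given 5′ to 3′, with the seed, bases 2 to 8, in capitals. By seed the family falls into a set with AAUACUG and a set with AACACUG.
hsa-miR-200b-3p: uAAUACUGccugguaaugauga
hsa-miR-200c-3p: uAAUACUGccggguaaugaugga
hsa-miR-429: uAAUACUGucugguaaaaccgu
hsa-miR-200a-3p: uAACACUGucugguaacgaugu
hsa-miR-141-3p: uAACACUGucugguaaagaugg

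The array rows of these miRNA genes report RNA of the locus, and the mature miRNAs were not analysed here. MIR141 had signals (log2) of 6.73 and 6.06 in control cells and 6.41 and 6.14 under overexpression, and MIR200CHG, the host transcript of MIR200C and MIR141, had a mean of 5.92 ± 0.11 (SD, n = 2) in control cells and of 5.81 ± 0.27 (SD, n = 2) under overexpression. The groups overlapped in both, just above the background level. MIR200A, MIR200B, MIR200C and MIR429 had means below it. MIR200B differed most between arrays, with 4.83 and 5.97 in control cells and 5.31 and 4.90 under overexpression.

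Non-coding genes beside the EMT genes showed no change that passed the test. Of 10 measured genes of this list, which includes the miRNA loci, 5 were above the background level, 0 rose and 0 fell at an unadjusted p below 0.05 in limma, with a median log2 fold change of −0.10. VIM-AS1, which runs antisense to VIM, had signals (log2) of 6.69 and 6.65 in control cells and 6.05 and 6.34 under overexpression, a log2 fold change of −0.48 (standard error 0.23). Both overexpression arrays were lower, opposite in sign to VIM. The groups did not overlap for 2 of the 5 non-coding genes above the background level, where this was so for 27.6% of all genes above it. ZEB1-AS1 had 8.15 and 7.99 in control cells and 7.96 and 7.61 under overexpression, a log2 fold change of −0.28 (standard error 0.24).

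The E-box that SNAIL and ZEB proteins bind, CACCTG on either strand (CAGGTG when read on the other), was searched in RefSeq promoter windows of 300 bases, 250 before and 50 after a transcript start, for the 5 of 10 genes with a window. No window was given for CDH1, CDH3, SNAI1, SNAI2 and TWIST1, so the promoter of CDH1 was not searched. VIM and FN1 had 1 window each and CDH2 had 2, all without a match, and so had ZEB2 with 1 window. Of the 7 windows of ZEB1, 2 held a match. Over all 35116 windows 20.6% held at least 1 match, and 0.635% held 3 or more. The ZEB1 window with 3 matches is shown because it holds the most E-boxes of the set, with the matches in capitals, at chr10:31318966-31319265 of GRCh38.p14 on the plus strand.
ZEB1: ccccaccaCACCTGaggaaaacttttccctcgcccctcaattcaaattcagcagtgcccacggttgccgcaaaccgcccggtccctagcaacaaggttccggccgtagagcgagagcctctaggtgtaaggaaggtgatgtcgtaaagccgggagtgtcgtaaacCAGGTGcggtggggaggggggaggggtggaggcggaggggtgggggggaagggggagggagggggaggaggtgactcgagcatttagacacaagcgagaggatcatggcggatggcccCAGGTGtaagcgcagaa

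The matches in this window start at positions −242, −85 and 34 from the transcript start. A match says only that these letters are present. ZEB2, with a mean signal (log2) of 3.83 over the arrays, had no match, as VIM had none. A relation of matches to signal was not tested. The VIM window, at chr10:17227991-17228290 on the plus strand, is shown as an example of a window without a match.
VIM: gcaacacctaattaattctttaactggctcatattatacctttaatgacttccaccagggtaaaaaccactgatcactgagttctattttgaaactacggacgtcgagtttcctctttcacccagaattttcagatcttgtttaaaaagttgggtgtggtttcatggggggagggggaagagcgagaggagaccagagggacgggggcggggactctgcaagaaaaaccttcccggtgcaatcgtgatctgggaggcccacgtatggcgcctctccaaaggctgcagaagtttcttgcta

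Genes that work with the cadherins and with the EMT factors were then read as lists. Over 10 lists, 127 genes were measured and 89 lay above the background level. At an unadjusted p below 0.05 in limma 0 were higher and 1 was lower under C6orf141 overexpression, or 0.787%, below the 2.11% of all genes, and after adjustment 0 passed. The 1 lower gene was PRKD1, a kinase that phosphorylates SNAIL, with signals (log2) of 4.50 and 4.43 in control cells and 3.76 and 3.96 under overexpression, all below the background level. As an alternative, the methods' t-test counted 3 genes as higher and 3 as lower, ID3, KRT19 and FBXL5 on the one side and PRKD1, NEFM and SYNM on the other, of which NEFM was below the background level. With that test 4.08% of all genes passed. The median log2 fold change over the lists was 0.05.

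All 16 epithelial adhesion and keratin markers were above the background level, and 0 rose and 0 fell, with a median log2 fold change of 0.11. The lowest was PKP3, with 5.77 and 6.03 in control cells and 6.25 and 5.89 under overexpression, all below the 7.72 of the negative control rows. The largest estimate was that of CRB3, an apical polarity gene, with signals (log2) of 9.61 and 9.11 in control cells and 9.76 and 10.19 under overexpression, a log2 fold change of 0.61 (standard error 0.28). It passed an unadjusted p below 0.05 after quantile normalization and with trend and robust settings. The tight junction gene CLDN4 had 0.43, the keratin gene KRT19 0.36 and the tight junction gene CLDN7 0.20. The 12 measured factors of the epithelial programme were also all above the background level, with 0 higher, 0 lower and a median of 0.0055. Among them OVOL1, which represses ZEB1, had 0.25, ELF3 −0.22, KLF4 0.22 and GRHL3 −0.19. For OVOL1, OVOL2, ELF3, KLF4 and FOXA2 both group means were below the 7.72 of the negative control rows. The groups overlapped in all 12 factors of the epithelial programme, where 27.6% of all genes above the background level had groups that did not overlap.

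Of 13 catenin and nectin genes, which link cadherins to actin or form parallel junctions, 11 were above the background level and 0 rose or fell, with a median of −0.03. JUP, which encodes plakoglobin, had signals (log2) of 14.58 and 13.47 in control cells and 14.52 and 14.83 under overexpression. As for CDH1, control array 2 was far below the other arrays, and the log2 fold change was 0.65 (standard error 0.37). The nectin genes had −0.40 for NECTIN4, 0.38 for NECTIN1 and 0.41 for NECTIN2. Of 17 other cadherin genes, 3 were above the background level, with 0.54 for CDH24, 0.20 for CDH12 and 0.18 for CDH8, and 0 passed.

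**Figure D5:**
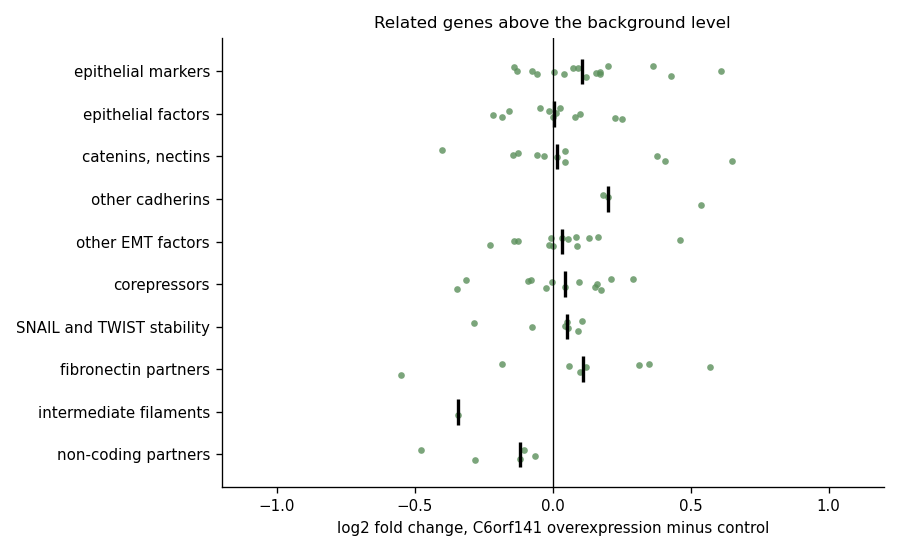
Log2 fold change, C6orf141 overexpression minus control (horizontal axis), of the genes above the background level in each of 10 related lists (green points, spread vertically at random), with the median of each list as a black bar. Points lie on both sides of 0 in 7 of the lists, and the outermost are JUP at 0.65 and CRB3 at 0.61 to the right and LOX at −0.55 to the left.

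Other transcription factors linked to EMT were measured for 18 genes, of which 13 were above the background level, 0 rose and 0 fell, with a median of 0.07. ID3, an inhibitor of basic helix-loop-helix factors, had signals (log2) of 8.84 and 8.79 in control cells and 9.28 on both overexpression arrays, a log2 fold change of 0.46 (standard error 0.22). It passed an unadjusted p below 0.05 with the methods' t-test and with trend and robust settings in limma. The E-protein genes TCF4 and TCF3 had −0.23 and 0.16, and HMGA2, a chromatin protein gene, had −0.13. PRRX1, PRRX2, FOXC2, GSC and SNAI3 were not above the background level, like SNAI1, TWIST1 and both ZEB genes.

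The corepressors through which SNAIL and ZEB proteins silence their targets were nearly all well above background, in 13 of 14 genes, with 0 higher, 0 lower and a median of 0.02. EZH2 and SUZ12, which encode subunits of Polycomb repressive complex 2, had −0.35 and −0.31 (standard errors 0.23 and 0.24). In each, both overexpression arrays lay below both control arrays. The groups did not overlap for 3 of the 13 corepressor genes above the background level, where this was so for 27.6% of all genes above it. The third was SMARCA4, whose overexpression arrays were both higher. SIN3A had 0.29 and SMARCA4 0.21. Of 8 genes that control SNAIL and TWIST protein stability, 7 were above the background level and 1, PRKD1, passed. COPS2 had −0.28, the ubiquitin ligase genes BTRC and FBXL14 had 0.11 and 0.09, and GSK3B, which marks SNAIL for degradation, had −0.07.

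Of 10 measured receptors and matrix partners of fibronectin, 8 were above the background level, 0 rose and 0 fell, with a median of 0.11. LOX, which crosslinks matrix proteins, had signals (log2) of 8.24 and 7.54 in control cells and 7.38 and 7.31 under overexpression, a log2 fold change of −0.55 (standard error 0.28). FBLN1 had 0.57, with 7.94 on control array 2 and between 8.84 and 9.29 on the other arrays. TGM2, a transglutaminase gene, had 0.35 and ITGA5, the α subunit of the fibronectin receptor, 0.31. Of the 9 type III and IV intermediate filament genes beside VIM, SYNM was the 1 above the background level, with 7.20 and 7.23 in control cells and 6.84 and 6.90 under overexpression, a log2 fold change of −0.34 (standard error 0.22).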

How the data were processed

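The authors labelled RNA with the WT PLUS reagent, hybridised it to Clariom D arrays and deposited gene-level log2 values, which per the labels come from Expression Console; they compared the groups in Partek. For the algorithm, the annotation release and the versions: not given in the sources used here. No further normalization was applied to the deposited log2 signals. Array control rows (2995 of 138745) were left out. Of the other rows 36176 had exactly 1 symbol, 1119 had several and 98455 were unnamed here; 25516 were matched by gene number to RefSeq (GRCh38.p14), and 623 older symbols were updated.

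Groups were compared by lmFit and eBayes of limma 3.58.1 under R 4.3.3 (two-sided, no covariate) over all 135750 rows, with Benjamini-Hochberg adjustment over 33458 genes and a threshold of 0.05. For the standard errors, limma draws the variance of each row toward 1 prior value over all rows. The standard error of a gene with close arrays can thus exceed its own spread. An exact permutation test of 2 against 2 arrays cannot go below p = 0.333 and was not used. Steps were tested on simulated data. The members and lists were chosen with earlier results of these data known. Named genes are C6orf141, the 10 EMT genes and, from each list, genes past the unadjusted threshold and up to 4 above the background level with the smallest p; others are named as examples. List genes without a row of exactly 1 symbol were not analysed here. Alternatives were quantile normalization, median centring, trend and robust settings, a filter on dim genes, averaging a gene's rows, the methods' t-test (Student's test, named there for clinical data), the replicate block and leaving out each array. Sequences are from RefSeq. The number of arrays limits the precision.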

Additional observations from a re-analysis of the deposited data

How the results depend on the processing

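Of the 10 EMT genes, 0 passed an unadjusted p below 0.05 under any alternative other than leaving out an array, and 0 passed an adjusted one under any. With 1 array left out, taking the lone array to vary as the other group did, 0 to 2 genes were higher at an unadjusted p, CDH1 and SNAI1 without control replicate 1, where 4.76% of all genes passed. The estimates (log2) then spanned −0.077 to 0.74 for CDH1, −0.0025 to 0.33 for CDH2, −0.32 to 0.69 for SNAI1, −0.11 to 0.40 for SNAI2, −0.42 to 0.18 for TWIST1 and −0.35 to 0.019 for ZEB2. With the mean of its rows CDH3 had 0.019 and VIM 0.32, the dim second cluster of VIM counting as much as the bright one. The cause was not tested, beyond the values of the left-out arrays. C6orf141 stayed higher at an unadjusted p below 0.05 throughout, with 3.12 to 3.79. In the related lists, against 0 higher and 1 lower gene, quantile normalization gave 1 higher, trend and robust settings 3 higher, the methods' t-test 3 higher and 3 lower, the mean of the rows 2 lower, genes above the background level 0 lower, and leaving out an array 0 to 8 higher (8 without control replicate 1, 1 without control replicate 2 or overexpression replicate 1) and 0 to 4 lower (4 without control replicate 2, 0 without either overexpression replicate). Deviations of same-numbered arrays had negative correlations (r = −0.112 across all genes and −0.271 across those above the background level). Control array 1 thus tended to deviate with overexpression array 2, and control array 2 with overexpression array 1. The replicate block pairs same-numbered arrays and does not capture this, and its source was not tested. With the block, 0 of the 10 genes and 1 lower list gene passed, where 1.87% of all genes did.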
